A study of Mus musculus with 6 samples.

Results

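Glycolysis and the hypoxia response were followed through 33 genes in the craniofacial tissue of mouse embryos in mid-gestation, at E12.5. The genes were chosen by name, as glucose and lactate transporters, glycolytic enzymes and well-known genes of the response to low oxygen, and all 33 were found among the 38553 genes of the RNA-Seq table. Control samples (n = 3) were *Rbfox2* flox/flox without Cre. Mutant samples (n = 3) were *Pax3* Cre/+:*Rbfox2* flox/flox, so all 6 carried the floxed allele and only the mutants carried Cre. Cre was expressed from the *Pax3* locus, which deletes *Rbfox2*, a splicing factor gene, in neural crest cells and also in paraxial mesoderm and somite derivatives. The microdissected tissue also holds cells without Cre, and no dose or time series was part of the design. The 3 samples of a genotype were independent biological replicates, and the question was whether the members differed between mutants and controls.

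Glycolysis splits glucose into pyruvate through a chain of cytosolic enzymes, and lactate dehydrogenase turns pyruvate into lactate when mitochondria do not take it up. When oxygen is low, prolyl hydroxylases stop marking the α subunit of hypoxia-inducible factor 1 (HIF-1, *Hif1a*) for destruction, and HIF-1 then raises transcription of glucose transporters, glycolytic enzymes, *Vegfa* and mitophagy genes. Growing embryonic tissues are known for a low oxygen supply and for making lactate even where oxygen is present. HIF-1 is regulated largely at the protein level, which RNA-Seq does not measure.

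Values are FPKM, fragments mapped to a gene scaled for the length of the gene and the depth of the library, which the authors computed. Their sums per sample lay between 528123 and 590174, and the number of reads behind a value is unknown. Differences are mutant minus control on the scale log2(FPKM + 1), where changes of weakly expressed genes appear smaller than they are. The limma tests covered the 10061 genes that exceeded an FPKM of 5 in each sample of at least 1 group, with Benjamini-Hochberg adjustment across all of them. *Rbfox2* itself, the targeted gene, stood at 58.4, 65.0 and 61.3 FPKM in control replicates 1, 2 and 3 and at 38.1, 36.3 and 34.3 FPKM in mutant replicates 1, 2 and 3. The mutants thus kept 58.8% of the control mean, with a log2 difference of -0.75 (SE 0.08, limma adjusted p = 0.14). Both first replicates were separate from the other 4 samples, with scores of -19.1 and -17 against 7.55 to 11.0 on a first principal component that held 54.7% of the variance.

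Markers of the cell types the tissue could hold were compared too. Of 13 neuronal markers tested, 4 had an unadjusted limma p under 0.05, all higher in the mutants, against 1.66% of all tested genes, and their summed level was 944 to 1047 FPKM in the controls and 1112 to 1215 FPKM in the mutants. This count was 0 without control replicate 2, 1 without mutant replicate 2 or 3, 2 without control replicate 3 or mutant replicate 1 and 7 without control replicate 1. Of 7 erythroid, 6 skeletal muscle and 10 epithelial markers tested, 0 had such a p and the summed levels overlapped. Summed erythroid markers ranged from 5216 to 10563 FPKM in the controls and from 7111 to 11106 FPKM in the mutants, and skeletal muscle markers from 150.7 to 378 FPKM and from 145 to 216 FPKM. Cranial mesenchyme markers, the defining markers of the tissue, were present at 1136 to 1429 FPKM in the controls and 1144 to 1318 FPKM in the mutants. Endothelial markers summed to 156 to 178 FPKM and 155 to 170 FPKM, and none of the markers of these lists was at 0 in all samples. Of 12 cranial mesenchyme markers tested, 1 (*Col1a1*) had an unadjusted limma p under 0.05, and of 9 endothelial markers 1 (*Egfl7*). Both were lower in the mutants, against 0.954% of all tested genes lower at such a p. With the replicate number as a block, such a p was reached by 7 neuronal markers and 3 erythroid markers, which were higher in the mutants. In that fit 4 muscle and 2 epithelial markers, *Egfl7* and *Col1a1* also reached it, and these were lower. Embryo sex was unbalanced as far as Y-linked genes show it. Summed over 4 Y-linked genes, the 3 controls lay at 0.10 to 0.22 FPKM, while 2 mutants reached 57.7 and 55.5 FPKM and the third stood at 0.21 FPKM. The part of these cell types in the differences below was not tested. For sex, a fit with the Y-linked level as a covariate was run, and its counts are given below. Only mutants had a high Y-linked level, so sex and genotype cannot be fully told apart in that fit. In bulk tissue, fewer cells of a type and less RNA per cell cannot be told apart.

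The most abundant members were enzymes of glycolysis and lactate dehydrogenase, and *Adm* and *Car9* were the least abundant. Not all glycolytic enzymes were abundant, as *Hk2*, *Aldoc*, *Eno2* and *Pfkp* had means of 4.65 to 7.76 FPKM. Mean FPKM over the 6 samples ran from 832 for *Gapdh* to 0.73 for *Car9*. After *Gapdh* came *Ldha* at 361, *Eno1* at 357 and *Tpi1* at 300.0 FPKM, then *Pgk1* at 248, *Aldoa* at 233, *Ldhb* at 177, *Gpi1* at 146 and *Pgam1* at 144 FPKM. *Ldha* and *Eno1* do not differ in level beyond their spread over samples, and neither do *Gpi1* and *Pgam1*. No other member reached 60 FPKM. *Ddit4*, *Pfkl*, *Hif1a* and *Slc2a1* formed the next group, with means between 50.8 and 53.2 FPKM and overlapping ranges. Of the 33 genes, 28 passed the filter, and *Pfkp*, *Egln3*, *Adm*, *Ndrg1* and *Car9* did not. *Aldoc* and *Ankrd37* passed through the controls only.

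**Figure D1:**
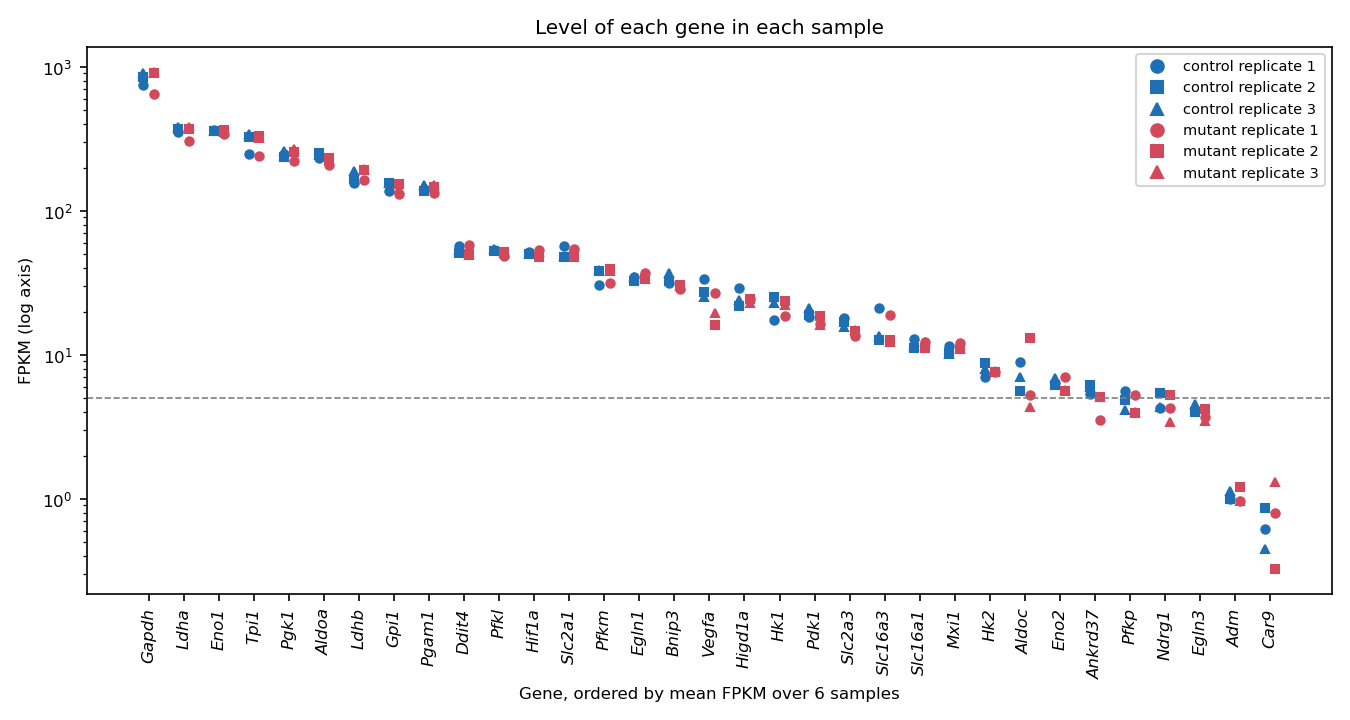
FPKM of each of the 33 genes (log axis) in each of the 6 samples, with genes ordered by their mean, controls in blue on the left and mutants in red on the right of each position, and replicate numbers as marker shapes. The dashed line marks the FPKM minimum of 5, and levels run from about 832 FPKM for *Gapdh* down to 0.73 FPKM for *Car9*, with the 2 groups close together at most positions.

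No member passed an adjusted p of 0.05 in limma, where 0% of the genes tested did. At an unadjusted p under 0.05, 2 of the 28 members were lower in the mutants, *Slc2a3* and *Vegfa*, and 0 were higher, against 0.954% of all tested genes lower and 1.66% in either direction. With control replicate 2 or mutant replicate 3 left out this count was 0, and without mutant replicate 1 it was 1 (*Vegfa*). Without control replicate 3 the count was 2, again *Slc2a3* and *Vegfa*. It was also 2 without control replicate 1 (*Ankrd37* and *Bnip3*) and without mutant replicate 2 (*Aldoc* and *Ankrd37*), but with other genes. With the Y-linked level as a covariate the count was 0. Mutant values lay below all control values for 5 members, *Slc2a3*, *Pfkl*, *Aldoa*, *Bnip3* and *Ankrd37*, and above all control values for 0, against 2.37% and 2.63% of all tested genes. Among the 26 members over the minimum in both groups there were 4 such genes below the controls, against 2.27% of all genes over it in both groups. With the replicate number as a block, 5 members had an unadjusted limma p under 0.05, all lower in the mutants, against 3.7% of all tested genes lower and 6.0% in either direction, with adjusted p-values of 0.66 or more. These were *Vegfa*, *Ankrd37*, *Aldoa*, *Bnip3* and *Slc2a3*. The block rests on replicate numbers that are not known to pair samples. *Ankrd37* in these counts, and *Aldoc* in that without mutant replicate 2, passed the filter through the controls only.

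The differences were small. Of the 28 members tested, 22 (78.6%) had a log2 difference below 0, against 47.2% of all tested genes. The median of the members was -0.04, against 0.01 over all tested genes. For 20 of the 28 the difference was smaller than its own SE. The median size of the difference was 0.053 with a median SE of 0.098 over the members. Over all tested genes these were 0.054 and 0.105, so small differences were not particular to the members. The 95% interval lay within 0.5 log2 units of 0 for 24 members, as for 85.8% of all tested genes, and did not for *Slc16a3*, *Aldoc*, *Vegfa* and *Ankrd37*. Neither the study nor the labels tie replicate numbers to pairs of samples. In 8 members each mutant was below the control of the same replicate number, against 13.1% of all tested genes. Apart from the 5 genes without overlap these were *Gpi1*, *Pdk1* and *Vegfa*. *Ldhb* and *Mxi1* were the 2 members above the control in each of the 3 numbers, against 13.6% of all tested genes.

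**Figure D2:**
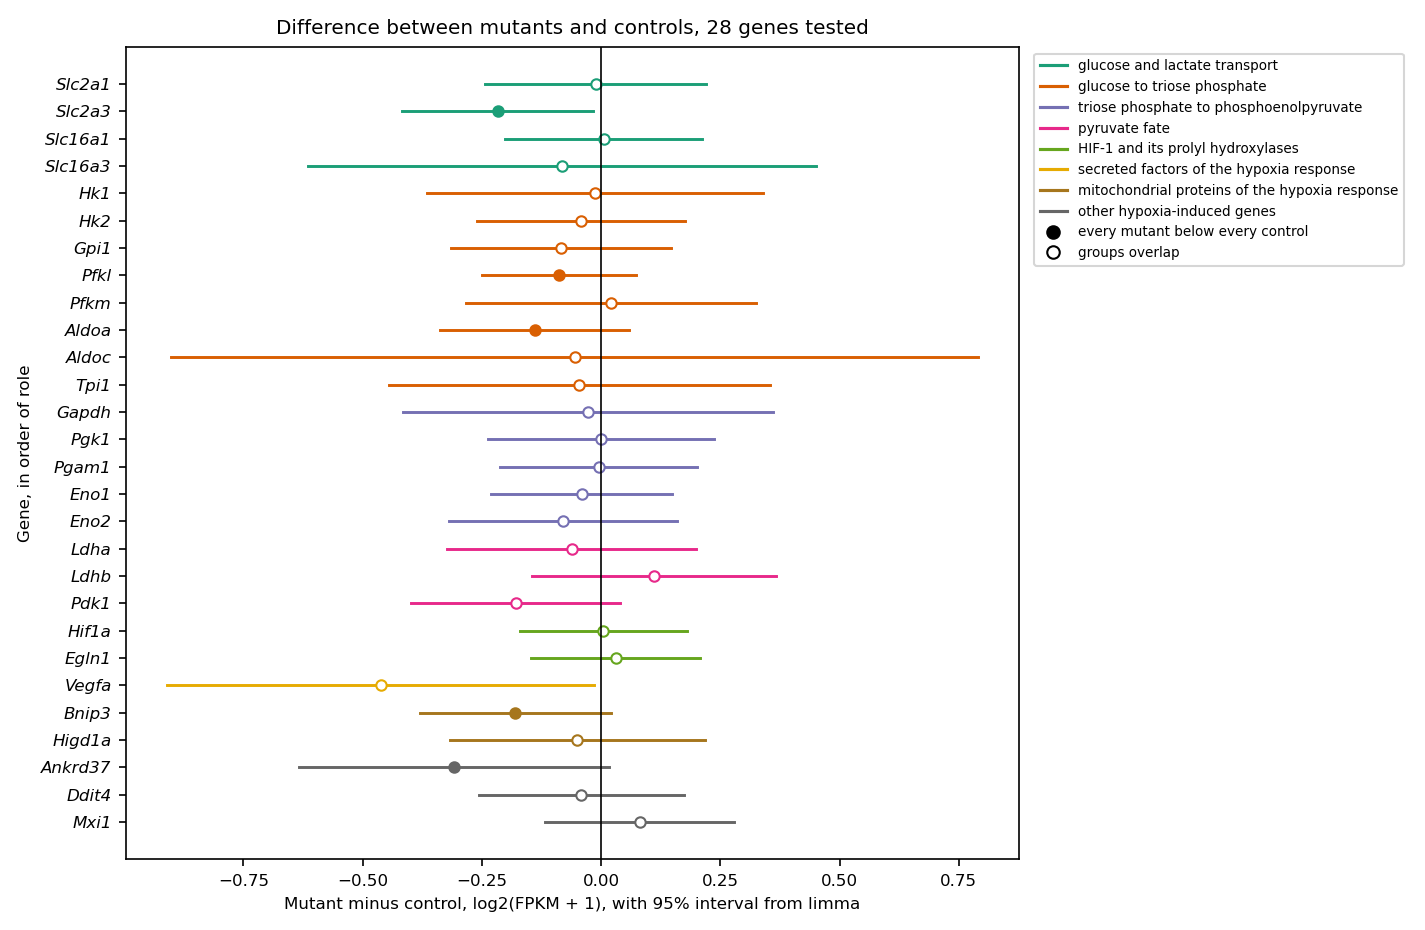
Mutant minus control difference in log2(FPKM + 1) for the 28 tested genes with the 95% interval from limma (n = 3 per group), ordered and coloured by role. Filled points are the 5 genes whose mutant values all lay below the control values, and nearly all intervals span 0, with *Vegfa* farthest to the left at -0.46.

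Glucose enters cells through facilitative transporters, and lactate leaves through monocarboxylate transporters. *Slc2a1*, which encodes the widely expressed transporter GLUT1, stood at 57.2, 47.5 and 48.5 FPKM in control replicates 1, 2 and 3 and at 54.3, 49.2 and 48.1 FPKM in the mutants. Its groups overlapped, the first replicate was the highest in each, and the log2 difference was -0.01 (95% interval -0.24 to 0.22). *Slc2a3* (ENSMUSG00000003153, GRCm38 chr6:122727809-122801640, minus strand) encodes GLUT3, a high-affinity transporter of neurons and placenta. It stood at 18.2, 16.999 and 15.6 FPKM in the controls and at 13.6, 14.6 and 14.9 FPKM in the mutants. Every mutant was thus below every control, at 16.9 ± 1.30 against 14.4 ± 0.67 FPKM (SD, n = 3), a log2 difference of -0.22 (SE 0.08, limma adjusted p = 1.0). With replicates 2 and 3 only it was -0.13. *Slc2a3* was the lower of the pair of glucose transporters in each sample. The lactate exporter gene *Slc16a3* and *Slc16a1*, whose product carries lactate in both directions, averaged 15.2 and 11.9 FPKM, with log2 differences of -0.08 and 0.01. *Slc16a3* was higher in both first replicates, at 21.0 and 19.0 FPKM, than in the other 4 samples at 12.3 to 13.5 FPKM.

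The first stage of the pathway traps glucose and cuts it into triose phosphates. Of its 8 tested members 7 had a difference below 0, with a median of -0.05. *Aldoa* (ENSMUSG00000030695, chr7:126795234-126800751, minus strand), the main aldolase of muscle and most embryonic tissue, stood at 234, 253 and 246 FPKM in control replicates 1, 2 and 3 and at 209, 232 and 224 FPKM in the mutants. The highest mutant was below the lowest control, and the means were 244 ± 9.49 and 222 ± 11.8 FPKM (SD, n = 3), a log2 difference of -0.14 (SE 0.08, limma adjusted p = 1.0). Within the 3 replicate numbers the differences were close to each other, at -0.16, -0.12 and -0.13, and with the replicate block the limma adjusted p was 0.81. *Pfkl* (ENSMUSG00000020277, chr10:77986947-78010083, minus strand), the liver-type subunit of phosphofructokinase, stood at 53.4, 52.8 and 54.5 FPKM in the controls and at 48.5, 51.5 and 51.1 FPKM in the mutants. The mutants again lay below the controls, with 93.9% of the control mean and a log2 difference of -0.09 (SE 0.07, limma adjusted p = 1.0).

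The other enzymes of that stage overlapped between the groups. Triose phosphate isomerase (*Tpi1*), which interconverts the triose phosphates, stood at 249, 324 and 341 FPKM in the controls and at 239, 329 and 318 FPKM in the mutants, lowest in the first replicate of each group. Glucose phosphate isomerase (*Gpi1*) had means of 150.4 ± 10.5 and 142 ± 12.2 FPKM (SD, n = 3), a log2 difference of -0.08 that ran from -0.15 to -0.02 with 1 sample left out. The hexokinase genes *Hk1* and *Hk2*, which phosphorylate glucose, and the muscle-type phosphofructokinase gene *Pfkm* had log2 differences between -0.04 and 0.02. *Aldoc*, the aldolase of brain, had the largest SE of the 28 tested members, with 8.96, 5.61 and 7.07 FPKM in the controls and 5.28, 13.2 and 4.31 FPKM in the mutants. Mutant replicate 2 was its highest sample and the other mutants its lowest, so the log2 difference of -0.06 had an SE of 0.36, and it was -0.49 without mutant replicate 2. *Pfkp*, the platelet-type phosphofructokinase gene, was under the filter at 3.93 to 5.61 FPKM, and it overlaps *Pitrm1* on the opposite strand, whose mean of 39.1 FPKM was higher.

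**Figure D3:**
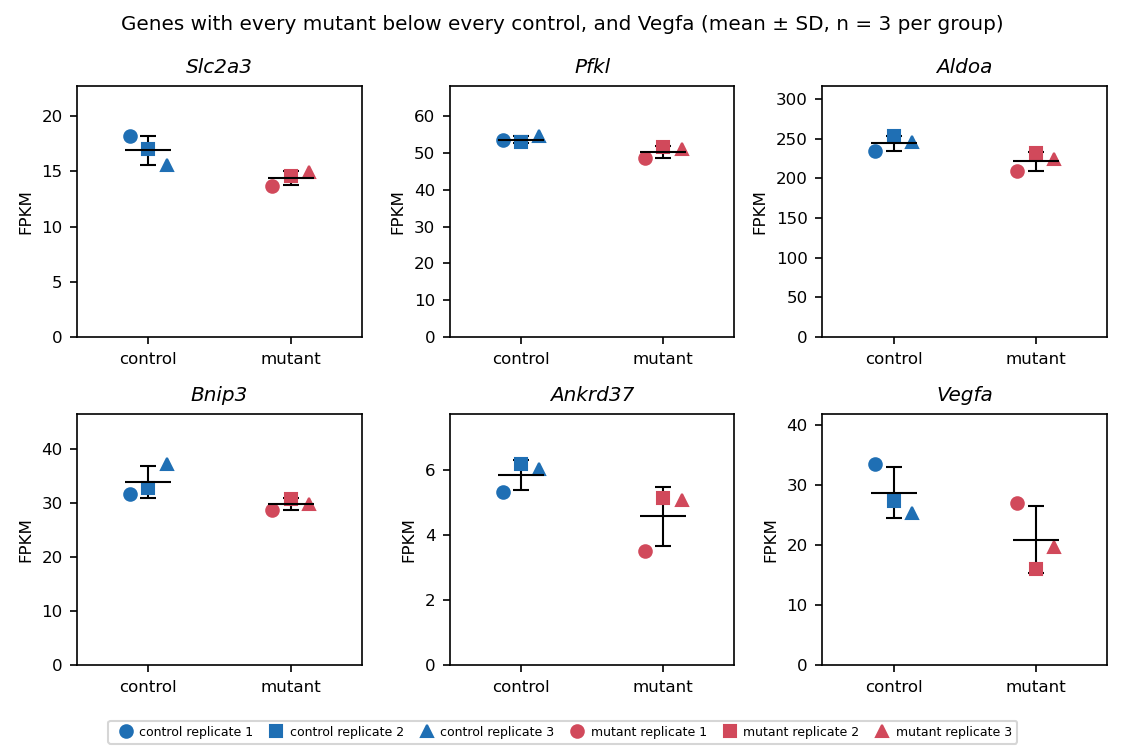
FPKM (axes from 0) of *Slc2a3*, *Pfkl*, *Aldoa*, *Bnip3*, *Ankrd37* and *Vegfa* in each control and mutant replicate, with black bars for mean ± SD (n = 3 per group) and marker shapes for the replicate number. In the first 5 panels every mutant is below every control, and for *Vegfa* mutant replicate 1 at 27.0 FPKM overlaps the controls at 25.3 to 33.5 FPKM.

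From triose phosphate to phosphoenolpyruvate the members showed no difference beyond their spread. All 5 had log2 differences between -0.08 and 0.00. Glyceraldehyde-3-phosphate dehydrogenase (*Gapdh*) stood at 750.4, 854 and 903 FPKM in control replicates 1, 2 and 3 and at 649, 910.4 and 924 FPKM in the mutants, a log2 difference of -0.03 (95% interval -0.42 to 0.36). The first replicate was the lowest in each group and the mutants lay on both sides of the controls. *Eno1*, the enolase of most tissues, was at 363, 362 and 361 FPKM in the controls and at 341, 362 and 353 FPKM in the mutants, so the controls lay within 2 FPKM of each other and mutant replicate 2 overlapped them. The neuronal enolase *Eno2* had means of 6.48 ± 0.38 and 6.10 ± 0.76 FPKM (SD, n = 3). *Pgk1*, an X-linked gene whose enzyme makes adenosine triphosphate, and *Pgam1*, whose enzyme shifts the phosphate group, had log2 differences of 0.00 and -0.01, with 95% intervals of -0.24 to 0.24 and -0.21 to 0.20.

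*Gapdh* shares at least 200 bases at 95% identity or more with 42 other annotated genes, of which 37 were in the table. The most abundant was *Gm13394*, a processed pseudogene (chr2:28933610-28934609, minus strand), with 226, 242 and 263 FPKM in the controls and 427, 270 and 272 FPKM in the mutants. Every mutant was above every control for the pseudogene (exact two-sided permutation p = 0.10). Mutant replicate 1 was far above the other 5 samples for it and was the lowest sample for *Gapdh*. With all copies summed, *Gapdh* and its copies stood at 1028, 1155 and 1229 FPKM in the controls and at 1154, 1245 and 1258 FPKM in the mutants. The sign of the difference then changed, to 0.10 (exact two-sided permutation p = 0.30), and mutant replicate 1 lay among the other samples. How reads were shared between *Gapdh* and its copies is not given in the sources used here, so the value of *Gapdh* alone is uncertain. Among the other members, the level of a gene on the opposite strand was above that of the member itself for *Pfkp*, *Ankrd37* and *Mxi1*.

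At the end of the pathway lactate dehydrogenase joins muscle-type subunits from *Ldha*, which favour lactate, and heart-type subunits from *Ldhb*. *Ldha* stood at 351, 372 and 380 FPKM in control replicates 1, 2 and 3 and at 307, 372 and 382 FPKM in the mutants, which overlapped, with a log2 difference of -0.06 (95% interval -0.32 to 0.20). *Ldhb* stood at 156, 167 and 188 FPKM in the controls and at 165, 191 and 196 FPKM in the mutants, a log2 difference of 0.11 (SE 0.11), with each mutant above the control of its number. That difference was 0.05 without control replicate 1 and 0.06 without mutant replicate 3, and it was 0.18 without control replicate 3 and 0.19 without mutant replicate 1. Pyruvate dehydrogenase kinase 1 (*Pdk1*), which keeps pyruvate out of the mitochondrial cycle, was at 18.3, 18.9 and 21.3 FPKM in the controls and at 16.4, 18.7 and 16.2 FPKM in the mutants. Mutant replicate 2 overlapped the controls of *Pdk1*, and the log2 difference was -0.18 (SE 0.09, limma adjusted p = 1.0), or -0.12 without control replicate 3.

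The balance between related genes was compared as log2 ratios of FPKM within each sample, which do not depend on the scaling of a sample. Of 9 ratios, 2 differed between the groups without overlap. The share of *Ldha* in the summed FPKM of *Ldha* and *Ldhb* was 69.3%, 69.0% and 66.9% in control replicates 1, 2 and 3 and 65.1%, 66.1% and 66.1% in the mutants. All mutants were below all controls, with a log2 ratio of 1.11 ± 0.09 in the controls and 0.94 ± 0.04 in the mutants (SD, n = 3). The share of *Slc2a1* in the sum of *Slc2a1* and *Slc2a3* was 75.9%, 73.6% and 75.7% in control replicates 1, 2 and 3 and 79.9%, 77.1% and 76.3% in their mutant counterparts, so every mutant was above every control. For both, the exact two-sided permutation p was 0.10, the smallest that 3 samples against 3 can give, and 0.45 after Benjamini-Hochberg adjustment over the 9 ratios. *Slc2a1* to *Slc2a3* moved from a log2 difference of 0.22 to 0.13 without mutant replicate 1. The other 7 ratios overlapped: *Hk1* over *Hk2*, *Pfkl* over *Pfkm* and over *Pfkp*, *Aldoa* over *Aldoc*, *Eno1* over *Eno2*, *Slc16a1* over *Slc16a3* and *Egln1* over *Egln3*. *Eno1* exceeded *Eno2* by 55.8-fold in the controls and 57.7-fold in the mutants, *Aldoa* exceeded *Aldoc* by 33.9-fold and 29.2-fold, and *Egln1* exceeded *Egln3* by 7.99-fold and 9.16-fold, as ratios of group mean FPKM. The mutant value of *Aldoa* over *Aldoc* rests on mutant replicate 2, without which the log2 difference of the ratio went from -0.06 to 0.40.

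**Figure D4:**
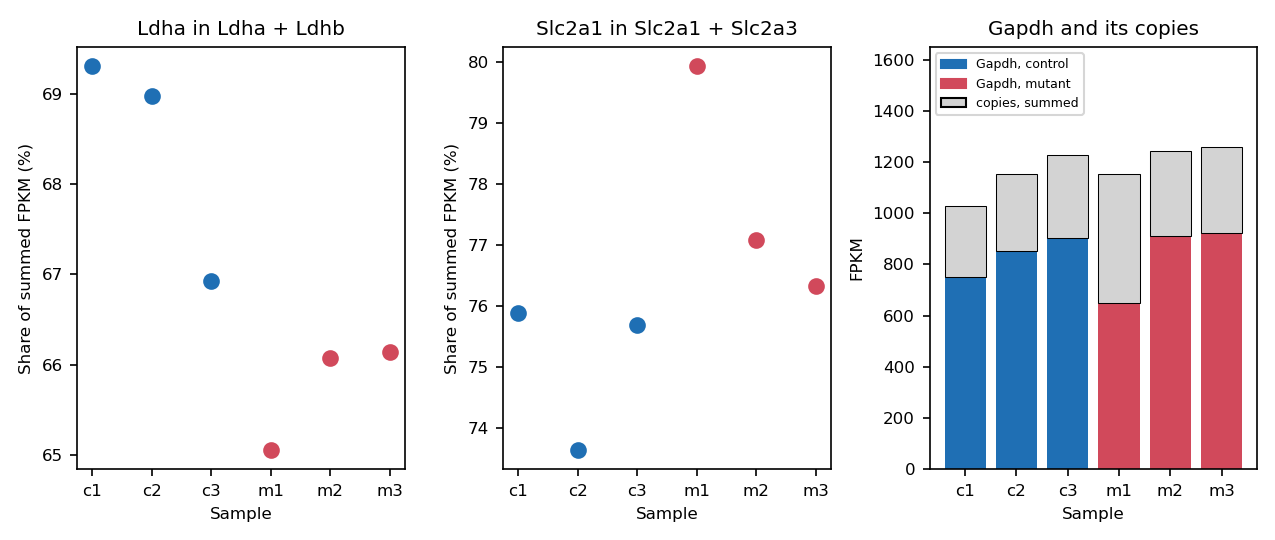
Share of *Ldha* in *Ldha* plus *Ldhb* and of *Slc2a1* in *Slc2a1* plus *Slc2a3* (percent of summed FPKM, axes not from 0) in controls c1 to c3 and mutants m1 to m3, and stacked bars of *Gapdh* FPKM with the summed FPKM of its copies in grey. The *Ldha* share is 66.9% to 69.3% in controls and 65.1% to 66.1% in mutants, and the grey part is tallest in mutant replicate 1.

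For the gene of the oxygen-regulated factor itself no difference was detectable. *Hif1a* stood at 51.6, 50.4 and 50.3 FPKM in control replicates 1, 2 and 3 and at 53.2, 47.7 and 52.2 FPKM in the mutants. The mutants spread on both sides of the controls, and the log2 difference was 0.00 (SE 0.07, 95% interval -0.17 to 0.18). *Egln1*, the main prolyl hydroxylase that marks the HIF-1 α subunit, was at 34.9, 32.8 and 34.5 FPKM in the controls and at 37.0, 33.6 and 33.9 FPKM in the mutants, also with overlap and a log2 difference of 0.03 (95% interval -0.15 to 0.21). *Egln3*, a hydroxylase that HIF-1 itself induces, was under the filter, at 4.04 to 4.59 FPKM in the controls and 3.46 to 4.23 FPKM in the mutants.

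Among the secreted factors *Vegfa* (ENSMUSG00000023951, chr17:46016993-46032369, minus strand), the main growth factor of blood vessels, had the largest difference of the 28 tested members. It stood at 33.5, 27.4 and 25.3 FPKM in control replicates 1, 2 and 3 and at 27.0, 16.0 and 19.6 FPKM in the mutants. Mutant replicate 1 lay within the control range and mutant replicates 2 and 3 below it. The means were 28.7 ± 4.26 and 20.9 ± 5.57 FPKM (SD, n = 3), so the mutants had 72.7% of the control mean, a log2 difference of -0.46 (SE 0.19, limma adjusted p = 1.0). Within replicate numbers the differences were -0.30, -0.74 and -0.35, and with the replicate block the limma adjusted p was 0.66. Without mutant replicate 2 the difference was -0.30, and without mutant replicate 1 it was -0.65. Adrenomedullin (*Adm*), a vasodilator peptide induced by hypoxia, was barely detected, at 0.99, 0.99 and 1.14 FPKM in the controls and 0.97, 1.21 and 0.97 FPKM in the mutants.

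Of the mitochondrial proteins, *Bnip3* (ENSMUSG00000078566, chr7:138890836-138909519, minus strand), a receptor that marks mitochondria for mitophagy, was lower in each mutant than in each control. It stood at 31.7, 32.7 and 37.2 FPKM in the controls and at 28.6, 30.7 and 29.9 FPKM in the mutants, or 33.9 ± 2.92 against 29.7 ± 1.09 FPKM (SD, n = 3). Its log2 difference was -0.18 (SE 0.09, limma adjusted p = 1.0), with a limma adjusted p of 0.81 under the replicate block, and it was -0.11 without control replicate 3. *Higd1a*, an inner membrane protein of the respiratory chain, overlapped, with 29.3, 21.8 and 23.9 FPKM in the controls and 24.4, 24.3 and 23.1 FPKM in the mutants.

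*Ankrd37* (ENSMUSG00000050914, chr8:45996902-46005707, minus strand), a HIF-1 target that encodes an ankyrin repeat protein, stood at 5.31, 6.18 and 6.02 FPKM in the controls and at 3.51, 5.13 and 5.06 FPKM in the mutants. Every mutant was below every control, and mutant replicate 1 was the lowest. The log2 difference was -0.31 (SE 0.14, limma adjusted p = 1.0), and -0.16 without mutant replicate 1. With the replicate block the limma adjusted p was 0.80. *Ankrd37* overlaps *Ufsp2* on the opposite strand, which had a mean of 21.4 FPKM, and whether reads were counted by strand is not given in the sources used here. *Ddit4*, an inhibitor of mTOR signalling, was at 56.7, 51.3 and 53.6 FPKM in the controls and at 58.1, 49.8 and 49.4 FPKM in the mutants, which overlapped. *Mxi1*, a MYC antagonist, was at 11.6, 10.3 and 10.2 FPKM in the controls and at 11.998, 11.1 and 11.0 FPKM in the mutants, a log2 difference of 0.08 (SE 0.08), which was 0.14 without control replicate 1 and 0.04 without mutant replicate 1. *Ndrg1* was under the filter at 3.40 to 5.47 FPKM, and carbonic anhydrase 9 (*Car9*), which is often read as a marker of severe hypoxia, was at 0.33 to 1.30 FPKM, with both extremes in mutants.

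Summed over each of 8 roles, the groups were farthest apart, relative to the control mean, for the secreted factors *Vegfa* and *Adm*, at 29.8 ± 4.21 FPKM in the controls and 21.9 ± 5.46 FPKM in the mutants (SD, n = 3), or 73.7% of the controls. For the other 7 roles the mutants had 91.2% to 100.6% of the control mean. The 9 genes from glucose to triose phosphate summed to 831 ± 74.6 FPKM in the controls and 787 ± 82.7 FPKM in the mutants (SD, n = 3). The 5 genes from triose phosphate to phosphoenolpyruvate summed to 1596 ± 87.2 and 1578 ± 196 FPKM, of which *Gapdh* made up the largest part. The 4 transporters summed to 95.5 ± 11.9 and 91.5 ± 6.72 FPKM, and *Hif1a* with the hydroxylases to 89.1 ± 1.76 and 89.6 ± 4.18 FPKM. The 3 genes of pyruvate fate gave 557 ± 31.9 and 555 ± 57.9 FPKM, *Bnip3* and *Higd1a* together 58.8 ± 3.76 and 53.6 ± 1.24 FPKM, and the 5 other hypoxia-induced genes 75.8 ± 2.40 and 73.5 ± 4.58 FPKM.

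The larger split was between replicate numbers, among the members as among all tested genes. For 15 of the 28 members (53.6%) the first replicates of both groups lay above, or both lay below, the other 4 samples. That is close to the share of all tested genes, 53.1%, so this was not particular to the members. Both first replicates were below for 8 members, *Hk1*, *Hk2*, *Gpi1*, *Pfkm*, *Tpi1*, *Gapdh*, *Ldha* and *Ldhb*, against 34.7% of all tested genes. These are enzymes of glycolysis and lactate dehydrogenase. Both were above for 7 members, *Slc2a1*, *Slc16a1*, *Slc16a3*, *Egln1*, *Higd1a*, *Ddit4* and *Mxi1*, against 18.4% of all tested genes. Of the 15 tested enzymes of glycolysis and lactate dehydrogenase 0 were above, and of the 13 other members 0 were below. This split was noticed after the values were seen and was not tested. The median size of the difference between the first replicates and the others was 0.13 log2 units over the members, against 0.05 between mutants and controls, and over all tested genes these were 0.16 and 0.05. The labels do not say how the first replicates differed from the others.

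**Figure D5:**
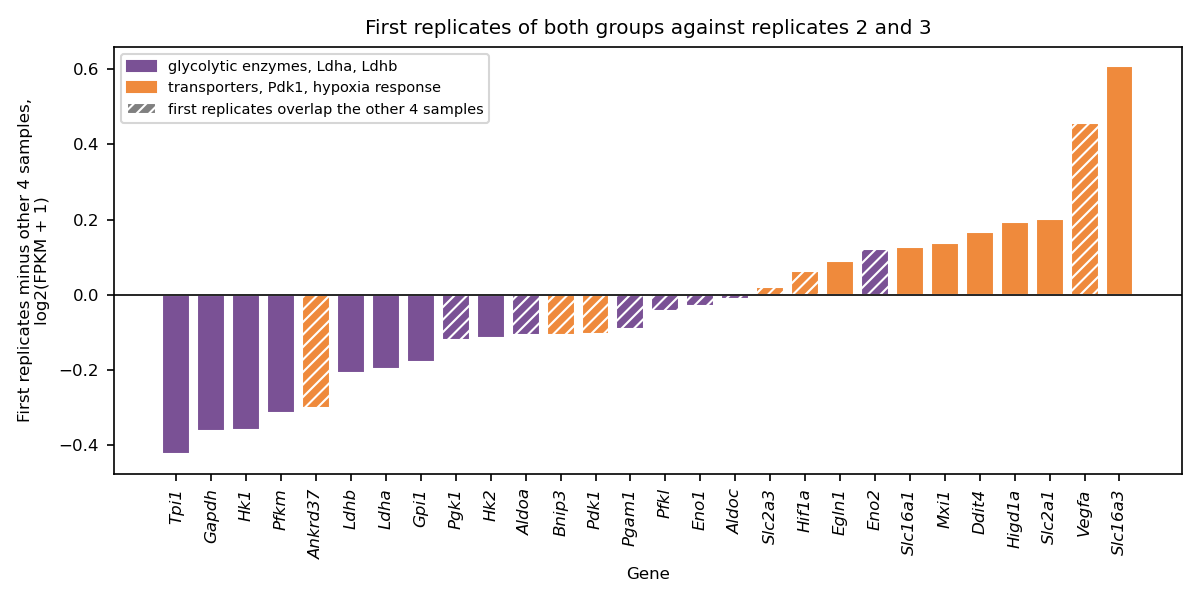
Mean log2(FPKM + 1) of both first replicates minus the mean of the other 4 samples for each of the 28 tested genes, with enzymes of glycolysis and lactate dehydrogenase in purple and the other genes in orange. Solid bars mark the 15 genes whose first replicates both lay above or both below the other samples, where the 8 enzymes are below 0 and the 7 others above 0.

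Other genes of the same pathways were compared from 3 lists. Of 27 tested genes of sugar and pyruvate metabolism that are no members, 0 had an unadjusted limma p under 0.05 in either direction, with 13 below and 14 above 0 and a median log2 difference of 0.01. Of 15 tested regulators of HIF, 0 had such a p, with a median of 0.03. Of 40 further genes known to be induced by hypoxia, 0 had such a p, 25 were below 0 and the median was -0.05. Of these 40, the mutant values lay below all control values for 2 and above for 0, the former being *Ak4*, an adenylate kinase of mitochondria, with a log2 difference of -0.16, and *Gys1*, glycogen synthase, with -0.12. Of the 27 genes of sugar metabolism 0 lay below and 2 above all controls, *Bpgm*, which makes 2,3-bisphosphoglycerate, with a log2 difference of 0.14 and *Pck2*, a mitochondrial carboxykinase, with 0.06. Of the 15 HIF regulators 0 lay below and 2 above, *Vhl*, which marks HIF for destruction, with 0.06 and the prolyl hydroxylase gene *Egln2* with 0.13. The shares of all tested genes were 2.37% below and 2.63% above. With the replicate block, 5 of the 40 had an unadjusted limma p under 0.05 and were lower in the mutants, against 3.7% of all tested genes. They were *Lox*, which crosslinks collagen, the growth factor binding protein gene *Igfbp3*, *Wsb1*, and the metallothionein genes *Mt1* and *Mt2*, with log2 differences between -0.44 and -0.21. No gene of these 3 lists passed an adjusted p of 0.05 in limma.

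HIF-1 binds the core letters ACGTG or GCGTG, and promoters of the members were searched for these letters because many of these genes are its known targets. Promoter windows ran from 250 bases before to 50 after a RefSeq start on GRCm38.p6, and 31 members matched, all but *Slc2a3* and *Ndrg1*. On either strand, 22 of the 31 genes held ACGTG in a window, against 21.8% of the 27025 genes counted, and 28 held ACGTG or GCGTG, against 46.7%. Windows on 1 chromosome, which holds no member, were left out of these counts. The members were chosen as hypoxia and glycolysis genes, so this share is a description of the list and not a result. Of the 20 tested members with ACGTG, 3 were lower in every mutant (*Aldoa*, *Bnip3* and *Ankrd37*), and of the 7 without it 1 was (*Pfkl*). The median log2 differences were -0.03 and -0.08. *Ankrd37* had passed the filter through the controls only. A match of these letters is no evidence of binding. The sites of *Aldoa* and *Bnip3*, and those of *Slc2a1*, *Ldha* and *Pgk1*, well-known HIF-1 targets whose groups overlapped here, are shown 5′ to 3′ on the strand of the gene with the match in capitals, where CACGT is ACGTG on the other strand. They lie at chr7:126799364-126799392 (minus strand), chr7:138909597-138909625 (minus), chr4:119108697-119108725 (plus), chr7:46845745-46845773 (plus) and chrX:106186938-106186966 (plus). *Ldha* and *Pgk1* held further matches that are not shown. The *Aldoa* site is in an intron of 4 of 14 annotated transcripts and the *Ldha* site shown is in an intron of 1 of 15. The *Slc2a1* site reaches the first exon of 1 of 5 transcripts, and those of *Bnip3* and *Pgk1* lie before all annotated transcripts.
*Aldoa*: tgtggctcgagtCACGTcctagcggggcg
*Bnip3*: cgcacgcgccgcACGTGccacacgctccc
*Slc2a1*: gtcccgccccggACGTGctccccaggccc
*Ldha*: ggcccagcctacACGTGggttcccgcacg
*Pgk1*: gcgtcgtgcaggACGTGacaaatggaagt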

How the data were processed

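Craniofacial tissue of 3 control and 3 mutant embryos at E12.5 was microdissected and its RNA sequenced. Poly(A)+ stranded libraries were sequenced as paired-end reads and aligned with STAR to GRCm38, and Cuffdiff and FastQC 0.11.4 are named in the submitters' processing notes. The versions of STAR and Cuffdiff, the annotation release and the step that made the gene table are not given in the sources used here. The authors deposited FPKM values of 38553 genes as 1 table per sample and 1 table of the series, between which 0 values differed. FPKM removes gene length and depth but also the read counts, so no counting interval can be given. Low values were not whole multiples of 1 read across the first replicates and the others, so no count test was run.

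Groups came from the sample titles. Genes with an FPKM over 5 in all samples of a group were compared on log2(FPKM + 1) in R 4.3.3 by limma 3.58.1 (trend option, no covariates, all 6 samples), which was first tested on simulated data. For single values an exact permutation test (two-sided) was used, which cannot give a p under 0.10. Same-numbered samples deviated together from the group means, with correlations of 0.64, 0.26 and 0.51 across genes for replicates 1, 2 and 3. Control replicate 3 also correlated with mutant replicate 2 (0.40) and control replicate 2 with mutant replicate 3 (0.23), and the first replicates with the others at -0.69 to -0.37, so the values set the first replicates apart but do not tell the other pairs from each other. Deviations sum to 0 within a group, so first replicates that deviate together make the other controls and mutants correlate on average. The correlations of replicates 2 and 3 therefore cannot show that these numbers pair samples. Since all 3 correlations were over 0.1, the numbers were still used as a block in an alternative fit. This pairing comes from the values, since neither the study nor the labels tie litters to numbers.

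The 33 members and the gene lists were chosen with earlier results of these data known. Values in every sample are given for tested members with an unadjusted p under 0.05, without overlap between the groups or among the 2 highest of their role, and for *Hif1a*, *Vegfa*, *Slc2a1*, *Pdk1* and *Ldha*. The rule also named the pathway genes with such a p, of which there were 0. *Ak4*, *Gys1*, *Bpgm*, *Pck2*, *Vhl*, *Egln2*, *Gm13394*, the pathway genes of the block fit and the sample values of *Aldoc* and *Adm* were chosen after values were seen. Coordinates and overlaps come from GENCODE M21 on GRCm38, and promoter sequences from RefSeq (GRCm38.p6). Alternatives were another pseudocount, other scalings and filters, no trend, a Y-linked covariate, the replicate block, a term for the first replicates, replicates 2 and 3 only and each sample left out in turn. Leaving samples out of the ratios, and the sum of *Gapdh* and its copies, were added after seeing the data.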

Additional observations from a re-analysis of the deposited data

How the results depend on the processing

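No member passed an adjusted p of 0.05 under any alternative run, and 290 of the 336 single values of the 28 tested members over 12 alternatives kept their direction. The sign changed for 15 members, all with a difference under 0.1 in size, and for none of *Slc2a3*, *Pfkl*, *Aldoa*, *Pdk1*, *Vegfa*, *Bnip3* and *Ankrd37*; the lowest adjusted p of *Vegfa* was 0.32 over its alternatives. With replicates 2 and 3 only, the log2 difference was 0.019 for *Slc2a1*, 0.25 for *Aldoc*, 0.063 for *Gapdh*, 0.073 for *Pgk1*, 0.047 for *Pgam1*, 0.0049 for *Ldha*, -0.014 for *Hif1a* and 0.053 for *Higd1a*. That of *Pgk1* was 0.0040 with median ratio scaling and 0.0078 with quantile normalization, and that of *Gapdh* was 0.10 when summed with its copies.

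With 1 sample left out, the log2 difference ran from -0.063 to 0.071 for *Slc2a1*, from -0.039 to 0.064 for *Slc16a1*, from -0.27 to 0.14 for *Slc16a3*, from -0.16 to 0.093 for *Hk1*, from -0.11 to 0.024 for *Hk2*, from -0.093 to 0.12 for *Pfkm*, from -0.49 to 0.22 for *Aldoc* and from -0.18 to 0.10 for *Tpi1*. It ran from -0.12 to 0.14 for *Gapdh*, from -0.056 to 0.077 for *Pgk1*, from -0.041 to 0.051 for *Pgam1*, from -0.12 to 0.037 for *Ldha*, from -0.025 to 0.052 for *Hif1a*, from -0.012 to 0.055 for *Egln1* and from -0.14 to 0.066 for *Higd1a*.

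The count of members lower at an unadjusted p under 0.05, 2 in the fit as reported, was 5 with the replicate block and with a term for the first replicates, 1 with median ratio scaling, with quantile normalization and with no filter (*Slc2a3* in each) and 0 with the Y-linked covariate, and it ran from 0 to 2 with 1 sample left out. Over all genes the count at an unadjusted p under 0.05 was 167, and 604 with the replicate block, 611 with a term for the first replicates, 1103 with replicates 2 and 3 only, 304 with an FPKM minimum of 1, 663 with no filter and 78 to 649 with 1 sample left out. At an adjusted p under 0.05 it was 0, and 0 with the block, 3 with the first-replicate term, 4 with replicates 2 and 3 only and 0 to 1 with 1 sample left out. *Rbfox2* passed, at adjusted p = 0.030 and a log2 difference of -0.75 with the first-replicate term and at 0.033 and -0.82 with replicates 2 and 3 only, in a range of 0.030 to 0.94 over its alternatives. The cause of these changes was not tested. With the block, neuronal markers higher at an unadjusted p under 0.05 went from 4 to 7. Their count was 0 with the Y-linked covariate and 0 to 7 with 1 sample left out. Erythroid markers higher went from 0 to 3 with the block, and muscle and epithelial markers lower from 0 to 4 and to 2. In the block fit 1 gene of sugar metabolism was lower, *Pgam2*, with a log2 difference of -0.43. There 1 gene of that list was higher (*Bpgm*) and 1 HIF regulator was higher (*Egln2*), where none was in the fit as reported. Which members were lower at such a p also changed, as given above for each sample left out. With replicates 2 and 3 only they were *Ankrd37*, *Bnip3* and *Vegfa*. Read depth behind single values is unknown, so it cannot be said how far counting error limits the low members.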
